A study of Rattus norvegicus with 9 samples.

Results

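A set of 64 genes, out of 34784 in the count table, had read counts above Control at both times after a lesion of the rat pituitary stalk. A gene was taken when 3 conditions held on CPM, the gene's read count scaled to the total count of its library. Its mean was at least 5 CPM at 1 d or at 7 d. Its rise, log2((group mean CPM + 1) / (Control mean CPM + 1)), was at least 0.7 at each time. All 6 lesion libraries lay above all 3 Control libraries. The members were thus chosen by the CPM values of all 9 libraries, so the comparisons with Control below are a description and carry no test.

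The tissue was hypothalamus of S-D rats that held the supraoptic and paraventricular nuclei (SON+PVN), and its RNA was sequenced in bulk. The 9 libraries fall into Control, PEL surgery sampled at 1 d and PEL surgery sampled at 7 d, with 3 libraries in each group. PEL is not written out in the labels; the published study used an electrical lesion of the pituitary stalk, made to study central diabetes insipidus. The labels give neither the age or sex of the animals, nor what was done to the Control animals, nor whether different libraries are different animals. The p-values here therefore measure only the spread between these libraries. A library held between 18948576 and 21012998 counts in Control, between 13338433 and 17294334 at 1 d and between 17014260 and 18685921 at 7 d.

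As background, the large neurons of these nuclei make vasopressin and oxytocin and send them down axons in the pituitary stalk to the posterior pituitary. Cutting such axons is known to start an injury programme in the parent neurons, and local astrocytes and microglia become reactive. Parts of such a response fade within days while others last, and a set chosen for being high at both times looks at the part seen early and still seen a week later. The study's title names Atf3 and c-Jun, transcription factors that are switched on by axon injury, and Lgals3, which encodes galectin-3, a sugar-binding protein of activated macrophages and microglia. The count table gives Ensembl rat gene IDs and does not pair them with symbols, and 0 of its IDs were matched to a symbol in the RefSeq table used here. Whether these genes are among the 64 is therefore not stated, the tissue label was not checked against marker genes, and no promoter could be assigned to a member. The members are given by their rank in the mean of the 2 rises, and 4 of them by ID.

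Of the 34784 rows, 12796 reached a mean of 5 CPM at 1 d or at 7 d. Among these, 1113 had a rise of at least 0.7 at 1 d and 230 at 7 d, and 96 had it at both. In 32 of the 96, at least 1 lesion library did not exceed every Control library, which left the 64 members. Members numbered 63 with Ensembl IDs and 1 with an ID outside Ensembl's naming, a class that held 476 of the 12796 rows. In the 3 members nearest to the threshold the smaller of the 2 rises was 0.70, 0.72 and 0.72, and the 3 nearest rows outside it, which met the other conditions, had 0.70, 0.68 and 0.68. The first row outside had mean CPM values of 5.47 in Control, 9.51 at 1 d and 11.4 at 7 d. The last member inside had means of 3.49, 6.99 and 6.32 in the same order.

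The typical member stood a little over 2 times above Control, and a few stood far above it. The median rise was 1.16 at 1 d (quartiles 0.99 and 1.88) and 0.99 at 7 d (quartiles 0.81 and 1.49). As plain ratios of mean CPM the medians were 2.52 at 1 d and 2.22 at 7 d. Over all 12796 rows with 5 CPM the median rise was 0.05 at 1 d and -0.02 at 7 d. A rise of at least 1 was reached by 47 members at 1 d and by 31 at 7 d, and by 27 at both times. A rise of at least 2 was reached by 15 members at 1 d, by 11 at 7 d and by 8 at both. There were 13 members with a rise below 1 at each time. The rise was larger at 1 d in 42 members and larger at 7 d in 22. Over all 12796 rows the share with the larger rise at 1 d is not given, so nothing is read from this split. By another measure, a rise of at least 0.7 was more frequent among these rows at 1 d (1113 rows) than at 7 d (230 rows). In bulk tissue, more cells of a type and more RNA per cell cannot be told apart.

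**Figure D1:**
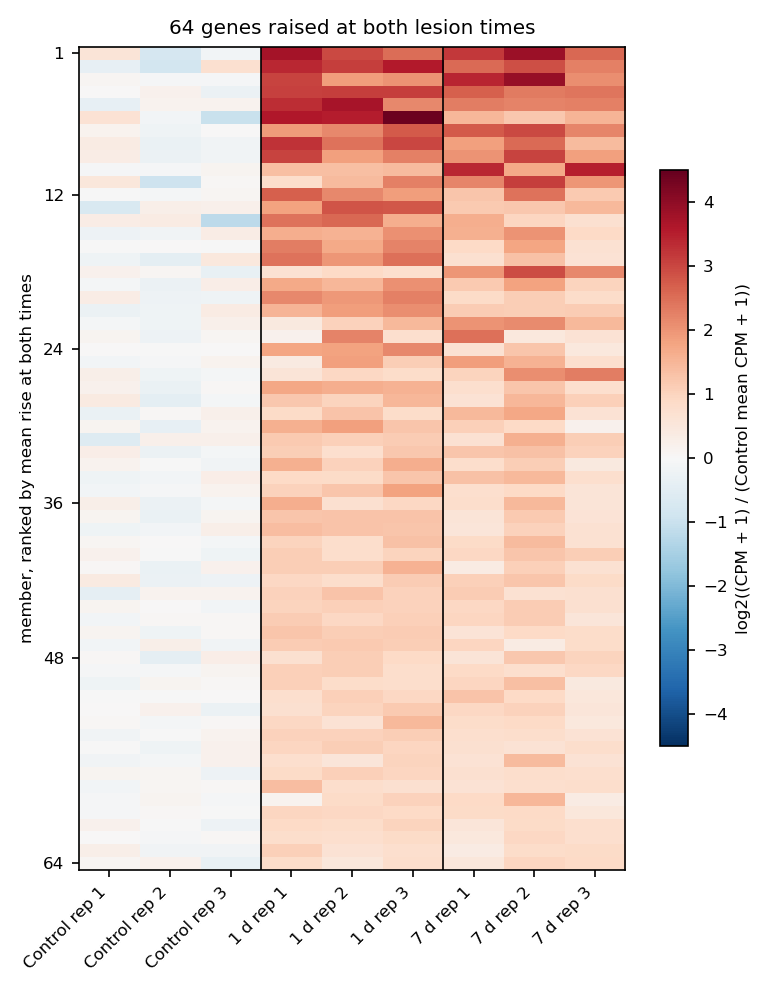
Rise of each of the 64 members (rows, ranked by the mean of the rises at 1 d and 7 d) in each of the 9 libraries (columns), as log2((CPM + 1) / (Control mean CPM + 1)). The 6 lesion libraries are above 0 in every row by the choice of the genes. By group mean, the largest rise at 1 d is that of rank 6, 3.91, and the largest at 7 d is that of rank 3, 3.34. In single libraries other ranks can be darker.

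**Figure D2:**
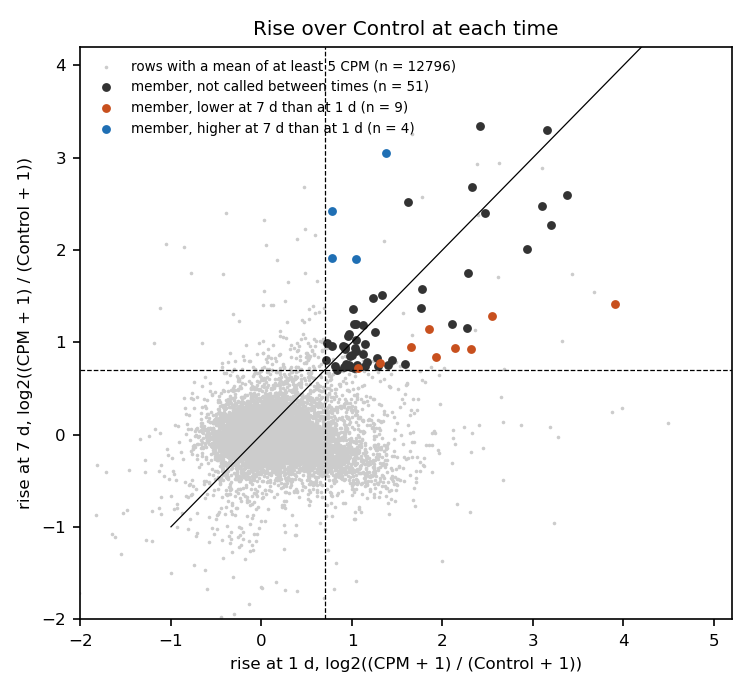
Rise at 1 d (horizontal) against rise at 7 d (vertical), both over the same 3 Control libraries, for the 12796 rows with a mean of at least 5 CPM (grey, 15 of them beyond the axes) and the 64 members (coloured by the test of 7 d against 1 d). Dashed lines mark the threshold of 0.7 and the diagonal marks equal rises; 42 members lie below it and 22 above it.

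The separation from Control was wide in few members. The lowest lesion library stood at a median of 1.43 times the highest Control library, with a range from 1.03 to 28.0 times. It stood at least 2 times higher in 12 members and less than 1.1 times higher in 4. The lowest of the 6 lesion libraries was a 7 d library in 47 members and a 1 d library in 17. It was 7 d replicate 3 in 27 members, more often than any other library. The highest Control library was replicate 1 in 26 members (40.6%, against 30.3% of all tested genes). It was replicate 3 in 23 (35.9%, against 42.5%) and replicate 2 in 15 (23.4%, against 27.2%). The share over all genes was not computed for the lowest lesion library. The same libraries chose the members, so nothing is read from these counts.

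In edgeR's test over 17345 genes (quasi-likelihood, adjusted p below 0.05), 58 of the 64 members were called higher than Control at 1 d, where 11.4% of all tested genes were called higher. At 7 d 36 members were called higher, where 0.842% of all tested genes were. Both comparisons use the values that chose the members and the same Control libraries, so nothing is read from these counts. All 64 members passed the filter on low counts.

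The member with the largest mean rise (rank 1) was found at 2.53, 0.422 and 1.19 CPM in Control replicates 1 to 3, at 30.8, 17.5 and 12.5 CPM in the 1 d libraries and at 20.6, 33.6 and 13.4 CPM in the 7 d libraries. Rank 9 stood at 0.646, 0.106 and 0.190 CPM in the Control libraries, at 9.71, 3.75 and 5.32 CPM 1 d after the lesion and at 4.33, 9.76 and 3.71 CPM at 7 d. Rank 7 stood at 2.09, 1.37 and 1.76 CPM in the Control libraries, at 9.25, 11.3 and 17.5 CPM 1 d after the lesion and at 17.7, 20.3 and 11.7 CPM at 7 d. In these 3 members the 2 lesion times overlapped while every Control library lay far below both. Their log2 fold changes from 1 d to 7 d were 0.23 (SE 0.558) for rank 1, -0.0018 (SE 0.532) for rank 9 and 0.48 (SE 0.267) for rank 7, none of which was called. Rank 9 had only 19 counts in the 3 Control libraries together, so its Control level is known with little precision.

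Rank 2 was at 2.38, 1.42 and 6.19 CPM in the Control libraries, at 44.9, 36.6 and 50.5 CPM 1 d after the lesion and at 24.2, 31.1 and 20.0 CPM at 7 d. Rank 4 was at 0.397, 0.581 and 0.143 CPM in the Control libraries, at 10.5, 10.99 and 10.95 CPM 1 d after the lesion and at 7.76, 5.88 and 6.36 CPM at 7 d. In both, all 7 d libraries lay below all 1 d libraries and still well above Control, but the change between the times was not called (rank 2: log2 fold change -0.72, SE 0.398, edgeR adjusted p = 0.220; rank 4: -0.61, SE 0.267, edgeR adjusted p = 0.114). Rank 5 was at 1.14, 2.11 and 2.09 CPM in the Control libraries, at 26.9, 35.2 and 11.3 CPM 1 d after the lesion and at 12.7, 11.99 and 12.5 CPM at 7 d. Rank 8 was at 10.6, 6.17 and 7.00 CPM in the Control libraries, at 84.4, 47.3 and 70.0 CPM 1 d after the lesion and at 30.9, 50.8 and 23.1 CPM at 7 d. Rank 12 was at 0.447, 0.369 and 0.571 CPM in the Control libraries, at 8.50, 5.56 and 4.35 CPM 1 d after the lesion and at 2.52, 6.94 and 2.32 CPM at 7 d. In these last 3 genes the mean was lower at 7 d than at 1 d and the libraries of the 2 times overlapped.

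A few of the largest rises were larger at 7 d. Rank 3 had 2 counts in the 3 Control libraries together, both in Control replicate 1, and stood at 7.57, 2.78 and 3.15 CPM 1 d after the lesion and at 10.2, 14.8 and 3.43 CPM at 7 d. Rank 11 was at 10.2, 3.06 and 7.14 CPM in the Control libraries, at 12.4, 19.8 and 37.0 CPM 1 d after the lesion and at 35.1, 66.8 and 29.8 CPM at 7 d. The 1 d and 7 d libraries of both genes overlapped, and neither change between the times was called (edgeR adjusted p = 0.189 for rank 3 and 0.216 for rank 11). Of the 12 members with the largest mean rise, 7 had the larger rise at 1 d. In the test between the times 1 was called lower and 1 higher, where 15.8% of all tested genes were called lower and 13.4% higher. Nothing is read from these counts.

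**Figure D3:**
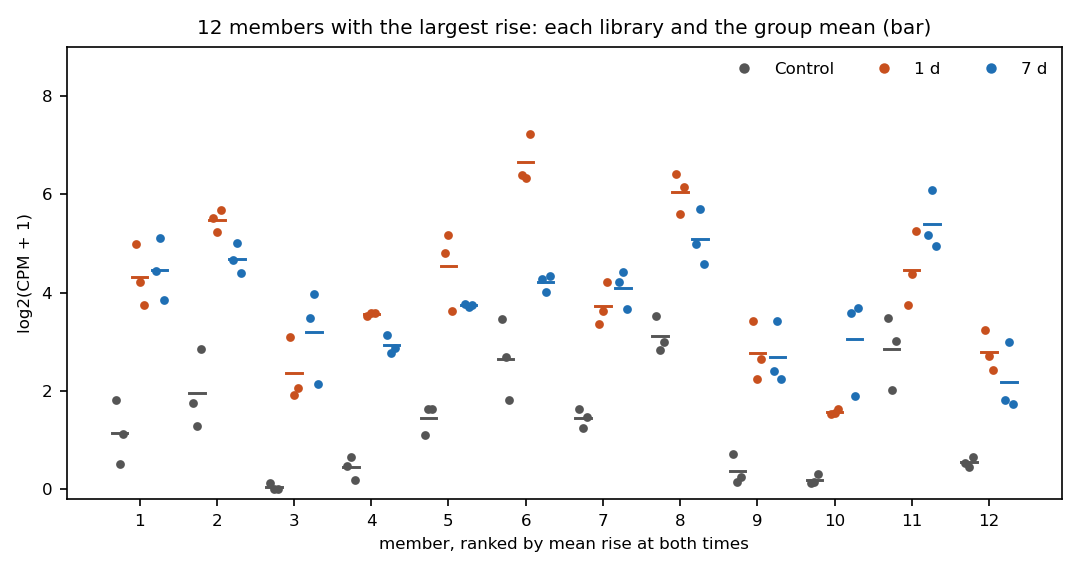
Level of the 12 members with the largest mean rise, as log2(CPM + 1), in every library (points) with the mean of the log2 values per group (bars), Control in grey, 1 d in orange and 7 d in blue. Every lesion library lies above every Control library by the choice of the genes; the 2 lesion times lie apart in ranks 2, 4, 6 and 10.

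The direct comparison of 7 d with 1 d is not the contrast that chose the members, but the rule used the same lesion libraries. Requiring a rise at both times limits how far the 2 times can differ in a member. Of the 64 members, 13 (20.3%) were called changed between the times, 9 lower and 4 higher at 7 d (edgeR, with p-values adjusted over all 17345 genes and a threshold of 0.05). Among all tested genes 29.2% were called, 15.8% lower and 13.4% higher. The members' shares were 14.1% lower and 6.25% higher. The rule bears on the members' shares and not on those of all genes, so nothing is read from the difference. The median log2 fold change between the times was -0.09 over the members and 0.03 over all tested genes. Leaving out 7 d replicate 1 reduced the members called to 7, as did leaving out 7 d replicate 3, and without 1 d replicate 2 there were 8. The lower calls numbered 4, 4 and 5 without these libraries and 14 by DESeq2, and the higher calls dropped to 2 when 7 d replicate 2 was left out, and to 2 when 1 d replicate 1 was. The share of all tested genes called in these other fits is not given. A fall in the members' calls is therefore not read as particular to the members or to a library.

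The 7 d libraries all lay below the 1 d libraries in 21 members (32.8%, against 29.7% of all tested genes) and all above them in 3 (4.69%, against 17.3%). In the other 40 members the times overlapped. The rule bears on these shares too, so nothing is read from them. The 51 members that were not called had log2 fold changes between -1.11 and 1.15 with standard errors between 0.108 and 0.761, 31 of them below 0 and 20 above. An unadjusted p below 0.05 was found for 8 of the 51. The share over all tested genes is not given, so nothing is read from this count. For the least precise of them changes of more than 2-fold between the times remain within the error, so a missing call does not show that a level was held.

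The rule required a rise of at least 0.7 at 7 d, so genes whose rise faded below that were left out beforehand. Of the 1113 rows with such a rise at 1 d, 96 also had it at 7 d. The values below thus describe the members only and not the early response as a whole. The part of the rise in mean CPM at 1 d that was still present at 7 d had a median of 80.7% over the 64 members (quartiles 52.2 and 116%). It was over 100% in 22 members, between 50 and 100% in 26 and under 50% in 16. For the 9 members called lower at 7 d it ranged from 11.8 to 59.96%, with a median of 29.7%. Their median rise was 1.93 at 1 d and 0.94 at 7 d. For the 4 members called higher at 7 d it ranged from 257 to 610%, and their median rise was 0.91 at 1 d and 2.17 at 7 d. For the 51 not called the median was 82.2%, with a median rise of 1.12 at 1 d and 0.98 at 7 d.

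**Figure D4:**
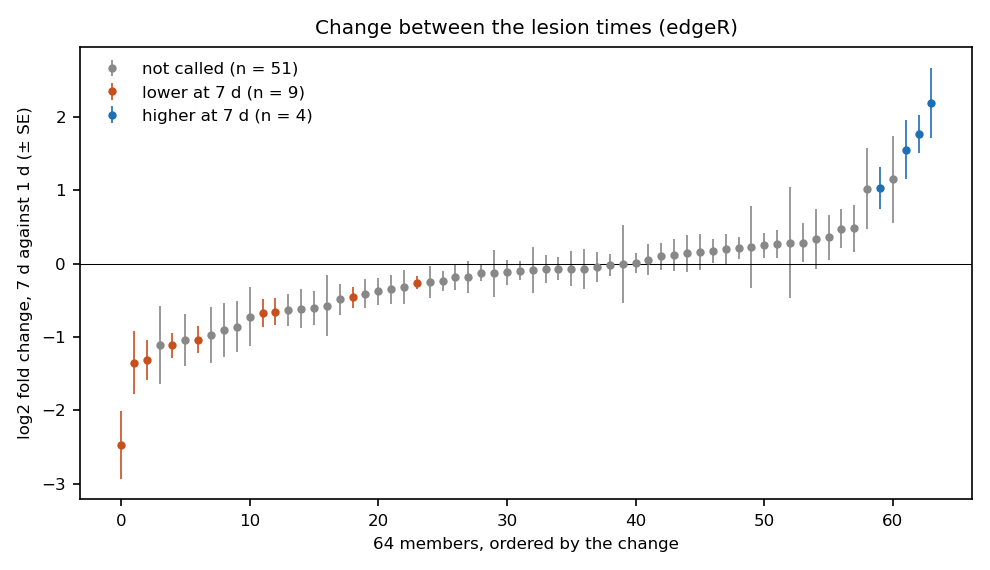
Log2 fold change from 1 d to 7 d (points) with its standard error (bars) for the 64 members in order of size, from the edgeR fit of all genes. The 9 members called lower reach -2.47, the 4 called higher reach 2.19, and the 51 not called lie between -1.11 and 1.15.

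The largest decrease between the times was that of ENSRNOG00000043451 (rank 6). It was at 10.03, 5.44 and 2.52 CPM in the Control libraries, at 83.5, 79.1 and 149.6 CPM 1 d after the lesion and at 18.5, 15.1 and 19.2 CPM at 7 d. Its rise at 1 d, 3.91, was the largest of the 64, and at 7 d it was 1.41. All 7 d libraries lay below all 1 d libraries, and the gene was 5.53-fold lower at 7 d (log2 fold change -2.47, SE 0.460, edgeR adjusted p = 0.00829). Of the rise in mean CPM, 11.8% remained at 7 d. The call held in all 18 alternatives that were run for it.

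ENSRNOG00000045621 (rank 13) showed the second largest decrease. It was at 0.397, 1.74 and 1.67 CPM in the Control libraries, at 7.00, 15.0 and 14.8 CPM 1 d after the lesion and at 4.12, 4.23 and 5.25 CPM at 7 d. The 7 d libraries again lay below the 1 d libraries and above Control, with a log2 fold change between the times of -1.35 (SE 0.425, edgeR adjusted p = 0.0406). In 6 of 18 alternatives the gene was no longer called (edgeR adjusted p between 0.061 and 0.128 in these 6, and from 0.00295 over all 18), and in 5 of these a lesion library was left out, namely 1 d replicate 2 or 3 or any 7 d library. The sixth was the fit with no filter on low counts.

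The largest increase between the times was that of ENSRNOG00000048295 (rank 10). It had 9 counts in the 3 Control libraries together and stood at 0.0993, 0.106 and 0.238 CPM there, at 1.91, 1.94 and 2.10 CPM 1 d after the lesion and at 11.02, 2.70 and 11.8 CPM at 7 d. The 1 d libraries were close together, while 7 d replicate 2 lay near the 1 d level and the other 7 d libraries stood far above it. The log2 fold change was 2.19 (SE 0.484, edgeR adjusted p = 0.00932). Of 18 alternatives only limma-voom did not call it, and the adjusted p lay between 0.000181 and 0.0709 in them.

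ENSRNOG00000046834 (rank 18) was at 13.1, 12.3 and 8.85 CPM in the Control libraries, at 19.0, 22.1 and 19.7 CPM 1 d after the lesion and at 47.6, 93.7 and 55.0 CPM at 7 d. Its 3 groups did not overlap, and the 1 d libraries stood a little above Control and well below the 7 d libraries. It was 3.42-fold higher at 7 d than at 1 d (log2 fold change of 1.77 with an SE of 0.260; edgeR adjusted p = 0.00228), and the call held in all 18 alternatives. Its rise was 0.78 at 1 d, near the threshold for membership, and 2.42 at 7 d.

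The 2 other members called higher at 7 d were ranks 26 and 22. Rank 26 was at 1.09, 0.528 and 0.666 CPM in the Control libraries, at 1.62, 2.33 and 2.10 CPM 1 d after the lesion and at 2.57, 6.58 and 7.69 CPM at 7 d. Between the times its log2 fold change was 1.56 (SE 0.405, edgeR adjusted p = 0.0168). Rank 22 was at 3.13, 2.80 and 4.14 CPM in the Control libraries, at 4.97, 8.02 and 10.9 CPM 1 d after the lesion and at 16.7, 18.2 and 10.8 CPM at 7 d. Between the times it had a log2 fold change of 1.03 (SE of 0.286, edgeR adjusted p = 0.0228). In rank 22 the lowest 7 d library lay below the highest 1 d library. The call of rank 26 was lost without 7 d replicate 2 or 3 or 1 d replicate 1, and that of rank 22 without 7 d replicate 1 or 2 or 1 d replicate 1 or 2.

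The members took a small part of each library. As a share of a library's total, their summed counts lay between 0.110 and 0.139% in Control, between 0.403 and 0.478% at 1 d and between 0.233 and 0.316% at 7 d. A single gene, rank 20, made up 36.9 to 47.5% of the members' CPM in Control, between 49.8 and 52.5% at 1 d and between 35.3 and 39.3% at 7 d. Without it the members' CPM summed to between 663 and 773 in Control, between 2024 and 2326 at 1 d and between 1413 and 2041 at 7 d. The lengths of the genes were not matched, so a larger count does not say that a gene had more transcripts.

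Rank 20 was at 658, 437 and 452 CPM in the Control libraries, at 2338, 2007 and 2458 CPM 1 d after the lesion and at 941, 1115 and 914 CPM at 7 d. The 3 groups did not overlap. From 1 d to 7 d it decreased 2.16-fold (log2 fold change of -1.11 with an SE of 0.171; edgeR adjusted p = 0.00227), and 27.1% of its rise remained. Rank 17, with the next largest counts, was at 77.5, 65.3 and 126.1 CPM in the Control libraries, at 492, 360 and 501 CPM 1 d after the lesion and at 148, 224 and 142 CPM at 7 d. It followed the same course, with a log2 fold change between the times of -1.31 (with an SE of 0.274; edgeR adjusted p = 0.0109) and 22.6% of its rise left. Both calls held in all 18 alternatives.

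Other members with large counts stood nearer to their 1 d level. Rank 34 was at 80.3, 83.6 and 112.2 CPM in the Control libraries, at 172, 170 and 222 CPM 1 d after the lesion and at 230, 252 and 157 CPM at 7 d. Rank 57 was at 55.0, 53.8 and 43.3 CPM in the Control libraries, at 92.6, 108.4 and 99.9 CPM 1 d after the lesion and at 84.9, 87.9 and 86.3 CPM at 7 d. The change between the times was a log2 fold change of 0.27 (SE 0.189) for rank 34 and -0.13 (SE 0.108) for rank 57, and neither was called. Ranks 32 and 42 stood on average at 33.7 and 29.7 CPM in Control, at 70.5 and 58.6 CPM at 1 d and at 78.8 and 63.4 CPM at 7 d. Of the 8 members with the largest counts at the lesion times, edgeR called 3 lower at the later time and 0 higher, where 15.8% of all tested genes were called lower and 13.4% higher (0 of the other 5 had a rise with an unadjusted p below 0.05), and 4 had the larger rise at 1 d.

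The remaining members called lower at 7 d were ranks 24, 21, 27, 38 and 54. Rank 24 was at 11.8, 11.7 and 11.7 CPM in the Control libraries, at 42.6, 44.1 and 56.2 CPM 1 d after the lesion and at 19.5, 29.3 and 16.8 CPM at 7 d. Between the times its log2 fold change was -1.04 (SE 0.185, edgeR adjusted p = 0.00352). Rank 21 was at 3.87, 4.01 and 6.47 CPM in the Control libraries, at 15.8, 20.3 and 23.8 CPM 1 d after the lesion and at 11.8, 11.6 and 11.9 CPM at 7 d. Between the times its log2 fold change was -0.67 (SE 0.194, edgeR adjusted p = 0.0257). The call of rank 24 held in all 18 alternatives. That of rank 21 was lost in 5 of 18, without any 7 d library or without 1 d replicate 2 or 3 (edgeR adjusted p up to 0.095). Ranks 27, 38 and 54 changed by -0.65, -0.46 and -0.26 on the log2 scale (SE 0.182, 0.140 and 0.0884). Their edgeR adjusted p was 0.0219, 0.0329 and 0.0480. These 3 were not among the members followed singly through the alternatives. In all 9 members called lower, every 7 d library lay below every 1 d library. The calls rest on the same libraries, so this separation is a description and adds nothing to them.

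The members' values differed between libraries of the same time. The median over the 64 members of the rise in a single library was 1.12, 1.12 and 1.24 in 1 d replicates 1 to 3 and 0.95, 1.25 and 0.80 in 7 d replicates 1 to 3. The same median over the 12796 rows with 5 CPM lay between -0.03 and 0.08 in these libraries. Among the 7 d libraries, replicate 2 was the highest in 46 members (71.9%, against 37.7% of all tested genes) and replicate 3 the lowest in 37 (57.8%, against 30.8%). With CPM on TMM-scaled library sizes these counts were 45 and 38. The rule used the 7 d mean, which favours genes with a high value in any 7 d library, so nothing is read from these shares. In the genes chosen without the library in question, 7 d replicate 2 was the highest 7 d library in 32 of 56, replicate 1 in 6 of 71 and replicate 3 in 5 of 72. In the same genes the left-out library stood at a median of 1.19 times the mean of the other two 7 d libraries for replicate 2, at 0.869 times for replicate 1 and at 0.734 times for replicate 3. The gene sets differ, and those for replicates 1 and 3 were chosen with replicate 2 in the 7 d mean. These counts and ratios are therefore not comparable between the 7 d libraries. Why replicate 2 was often the highest was not tested. At 1 d, the left-out library was the highest in 15 of 70 genes for replicate 1, in 15 of 67 for replicate 2 and in 26 of 64 for replicate 3. Over all tested genes, 1 d replicates 1 to 3 were the highest 1 d library in 29.8, 29.1 and 41.0%. For 7 d replicates 1 to 3 these shares were 29.6, 37.7 and 32.6%.

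**Figure D5:**
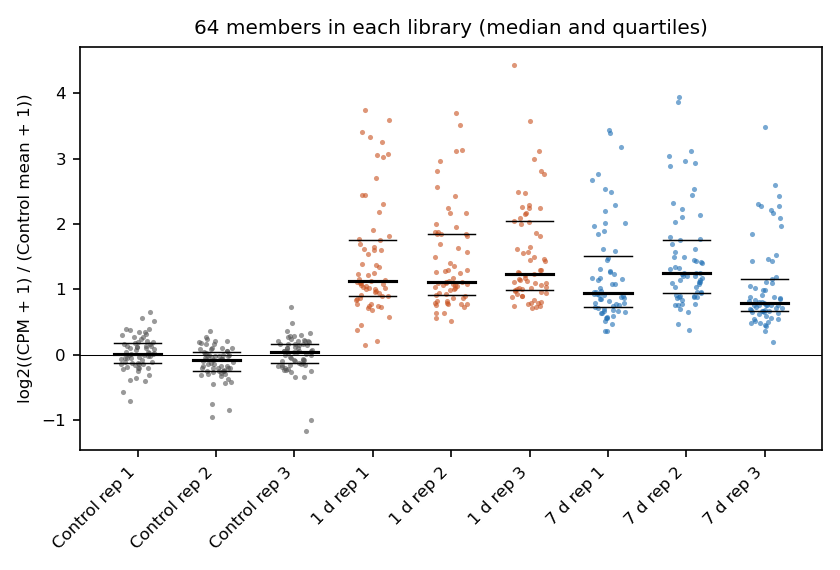
Rise of the 64 members (points) in each of the 9 libraries, as log2((CPM + 1) / (Control mean CPM + 1)), with the median (thick line) and quartiles (thin lines). The 7 d medians run from 0.80 in replicate 3 to 1.25 in replicate 2, while the 1 d medians lie between 1.12 and 1.24.

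The spread within the groups comes from the values that chose the members, and choice by a group mean favours genes with 1 high library, so it is given as a description only. The median coefficient of variation between the 3 libraries was 20.0% for the members and 13.6% for all tested genes in Control, 17.6 and 9.91% at 1 d and 24.1 and 9.59% at 7 d. Counting error alone would give a median of 9.82% for the members and 5.54% for all tested genes in Control, 6.61 and 6.001% at 1 d and 6.32 and 5.88% at 7 d. In some members 1 library carried much of a group's mean. Rank 23 was at 4.77, 3.48 and 4.57 CPM in the Control libraries, at 5.09, 23.9 and 7.80 CPM 1 d after the lesion and at 28.5, 6.35 and 7.36 CPM at 7 d. Apart from 1 d replicate 2 and 7 d replicate 1, its lesion libraries lay between 5.09 and 7.80 CPM, against 4.77 CPM in the highest Control library. Rank 25 was at 46.9, 48.5 and 56.7 CPM in the Control libraries, at 66.7, 184.7 and 110.0 CPM 1 d after the lesion and at 190.4, 152.6 and 87.0 CPM at 7 d, so its lesion libraries differed among themselves by more than its Control libraries did.

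The same conditions were applied to 8 libraries and then read in the one left out, which gives the measure in a library that did not choose the genes. With a 1 d library left out, 64 to 70 genes were chosen. Of these, 55 of 70 (78.6%) stood above all Control libraries with a rise of at least 0.7 in replicate 1, 58 of 67 (86.6%) in replicate 2 and 61 of 64 (95.3%) in replicate 3. Of the rows with 5 CPM, 8.49, 8.87 and 7.81% did so. With a 7 d library left out, the numbers were 47 of 71 (66.2%) in replicate 1, 45 of 56 (80.4%) in replicate 2 and 41 of 72 (56.9%) in replicate 3, against 1.54, 2.38 and 1.60% of the rows. The Control libraries in these comparisons had chosen the genes for being low, so the unselected rows do not give the share that no change would give.

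With a Control library left out, 65 of 82 genes (79.3%) had it below all 6 lesion libraries for replicate 1, 66 of 79 (83.5%) for replicate 2 and 68 of 160 (42.5%) for replicate 3. Of the rows with 5 CPM, 29.7, 12.8 and 9.92% did so. The 6 lesion libraries in these comparisons had chosen the genes for being high, so the unselected rows do not give the share that no change would give. The number of genes that met the conditions was thus 160 without Control replicate 3, against 64 with it. Of the 64 members, 57 were among the 160, and between 49 and 61 were kept whichever library was left out, with the fewest kept without 7 d replicate 2.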

How the data were processed

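Bulk RNA sequencing of 9 libraries was used. The values that the authors deposited are raw counts for each gene, 1 column per library. The submitters' processing notes name featureCounts 1.5.0-p3, HISAT2 2.0.5 and DESeq2 1.16.1. Neither build and annotation nor strand setting is given in the sources used here, so overlapping, antisense and near-identical genes may share reads. Libraries were grouped by title. The members and lists were chosen with earlier results of these data known.

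CPM values for the rule used column sums. Counts were tested with edgeR 4.0.16 in R 4.3.3 (filterByExpr, TMM factors, glmQLFit with robust estimation, glmQLFTest, 1 fit of 9 libraries with group as the only term, two-sided, Benjamini-Hochberg adjustment over 17345 genes, threshold 0.05). Standard errors were derived from the log2 fold change and the F statistic. Genes described were the 12 largest mean rises, the 8 largest counts at the lesion times, up to 6 largest called changes between the times in each direction and the 3 rows on each side of the threshold; ranks 23 and 25 and the spread and left-out-library readings were chosen after their values were seen. Gene lists and promoter motifs were not analysed, since 0 IDs matched a symbol. DESeq2 1.42.0, limma 3.58.1 and other scalings, filters and left-out libraries were alternatives. On simulated counts (16929 genes) 55, 75 and 70 genes were changed by 1.5-fold, 2-fold and 4-fold between 7 d and 1 d. The share found was 9.09, 68.0 and 95.7% in this order, with 5 false calls. In the 9 libraries 29.2% of the 17345 tested genes were called between these times, a far larger part than was changed in the simulated counts. Whether the shares found hold for the 9 libraries was not tested. The total counts limit precision: the members had between 2 and 31038 counts in the 3 Control libraries together, with a median of 311. Replicate pairs differed by more than sampling noise. The chi-square per degree of freedom was 18.3 to 38.1 in Control, 6.80 to 16.7 at 1 d and 9.12 to 10.2 at 7 d. By this measure the Control libraries, the reference for every rise, were the least alike.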

Additional observations from a re-analysis of the deposited data

Results flagged for a closer look

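For 10 members described above, the 2 lesion times departed from Control by different amounts, by edgeR's direct test of 7 d against 1 d. The log2 fold change between the times was 2.19 for ENSRNOG00000048295, 1.77 for ENSRNOG00000046834, 1.56 for rank 26 and 1.03 for rank 22. It was -2.47 for ENSRNOG00000043451, -1.35 for ENSRNOG00000045621, -1.31 for rank 17, -1.11 for rank 20, -1.04 for rank 24 and -0.67 for rank 21. Single outlying libraries were not tested, since each group held 3 libraries and only groups of 4 to 10 were to be tested.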

How the results depend on the processing

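The number of members, 64, was 27 with a rise of at least 1 and 122 with at least 0.5, 56 to 160 without 1 library in turn, and within 1.5 times of 64 under the other scalings, pseudocounts and CPM minimums. The 13 calls between the times ranged from 7 to 16 without 1 library in turn, the 4 higher calls from 2 to 4 and the 9 lower calls from 4 to 12. DESeq2 called 14 members lower, and a 2-fold minimum left 5 lower. The shares of all tested genes called in these other fits are not given, so nothing about the members is read from these changes. With the replicate block 12 members were called. The deviations of same-numbered libraries from their group means correlated by -0.15 to 0.04 across genes in 9 pairs. Libraries with other numbers correlated by -0.11 to 0.19, and not every library correlated best with its own number. This gave no sign that the numbers pair the libraries, but with 3 libraries in each group it cannot exclude a pairing. Over 10 members with 18 alternatives each, 161 calls between the times were kept, 19 were lost and 0 changed direction; the cause was not tested. Counts for gene lists were not run, for want of symbols. Depth limits the members with few Control counts, 5 of which had under 30 in all 3 libraries.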
